A study of Mus musculus with 4 samples.

Results

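In the NFIC peak list of mouse pancreas, 166 of 15824 peaks lay in the promoter class of a gene that is not protein-coding and not a microRNA gene. They were selected as the peaks whose class in the authors' annotation was the promoter, whose nearest gene had a type other than protein-coding, and whose symbol did not mark a microRNA, which left out 31 further promoter peaks. The 166 peaks belonged to 165 genes on 20 chromosomes, with 13 each on chromosomes 2 and 4 and 1 on chromosome X. The list gave 155 of these peaks the type ncRNA and 11 the type pseudogene. In the RefSeq annotation of the same build, 150 of the peaks were at long non-coding RNA (lncRNA) genes and 11 at transcribed pseudogenes, *Rmrp* was an RNase MRP RNA and *Rpph1* an RNase P RNA. The annotation went against the type in the list for *Gm10033* and *BC029722*, which it holds as protein-coding, and *G630016G05Rik* was not found in it.

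Chromatin was taken from the whole pancreas of wild-type mice of mixed strain, 8 to 12 weeks old in the deposited description, and precipitated with a Bethyl antibody against NFIC in 3 libraries, beside 1 library of input DNA. The paper's text gives a narrower age range. The whole tissue holds acinar, ductal, endocrine and other cells. The deposited list is merged: it holds no value for a replicate or for the input, so no spread between replicates, no test and no depth per library can be given. A peak list carries no expression, so the tissue could not be checked against marker genes.

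NFIC belongs to the nuclear factor I (NFI) family, whose members bind DNA as dimers at a palindrome made of a TTGGC arm, a short spacer and its mirror arm GCCAA. Many lncRNAs start close to a protein-coding gene and are transcribed away from it, so that both share a promoter region. Small nucleolar RNA (snoRNA) host genes carry in their introns the snoRNAs that guide chemical modification of ribosomal RNA. RNase MRP and RNase P are RNA-protein enzymes, of which the former acts in the maturation of ribosomal RNA and the latter in that of transfer RNA.

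The sequences of the highest-scoring members show the range of what lay under these peaks. The peak score is the authors' own, on a scale that is not given in the sources used here. An NFI full site was defined as TGGC and GCCA separated by 5 bases, with at most 1 mismatch over the fixed bases, and an exact site as one with none. The peak of *Gm17597*, a predicted lncRNA gene, spanned chr15:81802473-81802645 (mm10, plus strand) and had a score of 42.0, and its exact site is in capitals. It lies 54 bp inside the *Gm17597* transcript, which starts 60 bp from *Tef*, a gene of a PAR bZIP transcription factor read in the opposite direction.
Gm17597: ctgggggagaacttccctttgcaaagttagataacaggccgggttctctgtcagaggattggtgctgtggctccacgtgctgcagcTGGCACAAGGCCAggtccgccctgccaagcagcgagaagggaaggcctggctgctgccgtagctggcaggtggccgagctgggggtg

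The highest score of all members, 54.4, was that of *Pisd-ps1*, a pseudogene of the phosphatidylserine decarboxylase gene, at chr11:3123827-3123999. Its peak held no NFI full site, and its overlapping SP motifs, GGGCGG, are in capitals.
Pisd-ps1: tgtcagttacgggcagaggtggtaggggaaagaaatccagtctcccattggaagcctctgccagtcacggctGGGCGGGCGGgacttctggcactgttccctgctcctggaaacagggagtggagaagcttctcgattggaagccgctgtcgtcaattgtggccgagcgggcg

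Exact NFI sites were found at 21 members, 1 at each. Those of 9 members are shown on the plus strand with 12 bases on either side and the site in capitals. The opening 4 had scores from 31.3 to 17.9 and no protein-coding start within 1000 bp. The next 3 were at RNA genes that start head to head with a protein-coding gene within 1000 bp. The last 2 had the lowest scores of all members with an exact site.
Gm15408 (chr5:149006842-149006878): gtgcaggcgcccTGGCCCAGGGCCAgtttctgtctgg
1700030A11Rik (chr17:28904896-28904932): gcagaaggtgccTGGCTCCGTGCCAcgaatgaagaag
4930471G24Rik (chr13:47667460-47667496): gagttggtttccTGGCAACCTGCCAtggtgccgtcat
AI197445 (chr13:107469540-107469576): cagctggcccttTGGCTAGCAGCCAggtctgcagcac
2610316D01Rik (chr3:45377476-45377512): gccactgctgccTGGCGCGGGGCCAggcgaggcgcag
3010003L21Rik (chr6:148945275-148945311): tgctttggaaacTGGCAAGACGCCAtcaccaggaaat
Fam120aos (chr13:48968310-48968346): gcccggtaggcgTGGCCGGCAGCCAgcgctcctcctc
Lrp8os2 (chr4:107823612-107823648): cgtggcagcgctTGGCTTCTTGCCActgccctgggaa
1700102H20Rik (chr17:3558182-3558218): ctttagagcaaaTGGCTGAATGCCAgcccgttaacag

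The arms extended to TTGGC on the left and GCCAA on the right in 1 of the 21 exact sites, and on only 1 side in 6. The exact site lay within 15 bp of the peak centre in 13 of the 21. At *Fam120aos* it was centred on the peak, and at *Hk1os*, the opposite-strand RNA of the hexokinase gene *Hk1*, it lay 88 bp from the centre. Among all 68 members with a full site, the best site of each had a median distance of 21 bp from the peak centre, and 36 (52.9%) were within 25 bp. The corresponding values for the 1088 promoter peaks of protein-coding genes with a full site were 26 bp and 49.9%.

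Scores of the members ran from 3.39 to 54.4 with a median of 6.57, against 6.37 for the 3073 promoter peaks of protein-coding genes and 6.57 for all peaks of the list. The upper 2 quartiles of the whole list held 85 of the 166 members, 51.2% (95% Wilson interval, 43.7 to 58.7%). They held 51.6% of all peaks and 48.9% of promoter peaks of protein-coding genes, since scores equal to the median were counted in. Intervals here and below cover counting error only, since peaks are not replicates. The score of a member thus spanned most of the range of the list, and its middle was close to that of the other peaks.

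Below *Pisd-ps1* and *Gm17597*, the highest scores were 33.1 at the pseudogene *2610005L07Rik*, 31.3 at *Gm15408*, 30.3 at *Pisd-ps2* and 28.5 at *A230028O05Rik*. *1700030A11Rik* followed with 26.1, *Bcas3os2*, opposite-strand RNA of *Bcas3*, with 21.5, *1810019D21Rik* with 20.3 and *4930471G24Rik* with 19.3. Of these 10, 3 were pseudogenes, 5 RIKEN clones or opposite-strand transcripts with little known function, and *Gm17597* and *1810019D21Rik* lay head to head with a coding gene. The partner of *1810019D21Rik*, at 464 bp, was *Esrp2*, which encodes an epithelial regulator of splicing, and the peak lay between both starts.

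**Figure D1:**
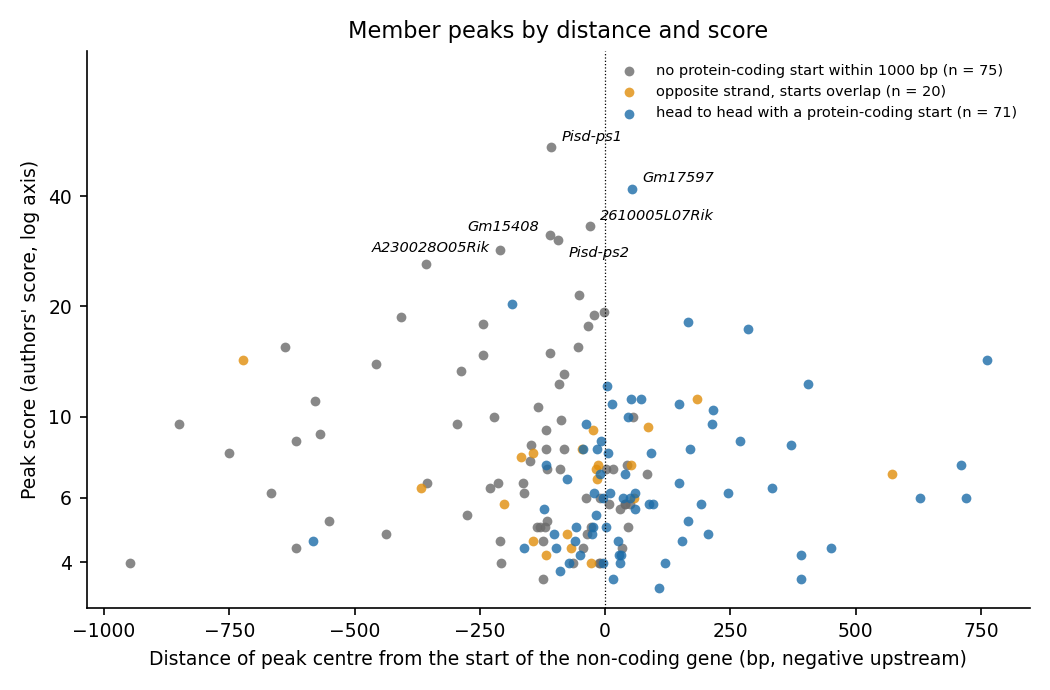
Peak score (log axis) of the 166 members against the distance of the peak centre from the start of the non-coding gene in bp, 1 point per peak, coloured by the arrangement with the nearest protein-coding start. Most points lie within 250 bp of the start and below a score of 10, and 5 of the 6 highest scores have no protein-coding start within 1000 bp.

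The rule took peaks of the promoter class, so their closeness to a start was fixed by the choice and the distances are given as a description. The distance of the peak centre from the transcription start site (TSS), negative upstream, ran from -949 to 762 bp with a median of -28.5 bp. Within 100 bp of the TSS lay 83 members (50%), against 51.0% of promoter peaks of protein-coding genes, and within 250 bp 132 (79.5%) against 76.5%. Upstream of the TSS lay 102 members (61.4%; 53.9 to 68.5%), against 74.6% (73.0 to 76.1%) of promoter peaks of protein-coding genes. By neighbourhood, 36 of 88 members with a protein-coding TSS within 1000 bp of the peak (40.9%; 31.2 to 51.4%) were upstream of their own TSS, and 66 of the other 78 (84.6%; 75 to 91.0%). The choice of members bears on this split, since the promoter class ends near 100 bp past the start of the transcript that gives it. Of 48 members annotated to a coding transcript, 26 lay more than 100 bp past their own TSS, and of 118 annotated to a non-coding one, 1 did. How much of the split follows from the choice was not tested.

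Coding and non-coding starts stood side by side at many members. A TSS of another, protein-coding gene lay within 1000 bp of the peak centre for 88 of 166 members, 53.0% (45.4 to 60.5%), against 13.9% (12.7 to 15.2%) of promoter peaks of protein-coding genes. The class of promoter can be given by a coding transcript, and the rule follows that class: the authors' annotation named a coding transcript for 48 members and a non-coding one for 118. All 48 of the former had a coding TSS within 1000 bp. Of the 118, 40 did, 33.9% (26.0 to 42.8%), which is lower than the share of all members and has an interval above that of the promoter peaks of protein-coding genes. No test of this difference was made. Of all 3939 non-coding genes with a curated RefSeq transcript, 76.0% had no coding TSS within 1000 bp of their own start.

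By the starts themselves, 71 members (42.8%; 35.5 to 50.4%) were head to head with a protein-coding gene within 1000 bp, that is, read away from each other. Another 20 (12.0%) were on opposite strands with overlapping starts, and 0 were on the same strand. The gap between the 2 starts of the head-to-head pairs ranged from 8 bp, for *1700112J16Rik* and *Lysmd4* and for *Gm11240* and *Rasef*, to 861 bp, for *Rap1gapos* and *Rap1gap*. Its median was 124 bp, and 61 of the 71 gaps were under 300 bp. The same median of 124 bp was found over all 606 non-coding RefSeq genes with this arrangement, so the pairs with a peak were not closer together in these data. The peak centre lay between both starts in 20 pairs (28.2%), past the non-coding start and inside its transcript in 47 (66.2%), and past the coding start in 4 (5.63%). The list assigns a peak to the nearest TSS of its own annotation, so peaks nearer to a coding start there are counted with the coding gene. These positions follow in part from that step. By the RefSeq starts used here, the 4 peaks past the coding start are nearer to it than to the RNA start. Of the 28 head-to-head pairs whose peak was annotated to a non-coding transcript, 13 had the peak between the starts, and of the 43 annotated to a coding transcript, 7 did.

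**Figure D2:**
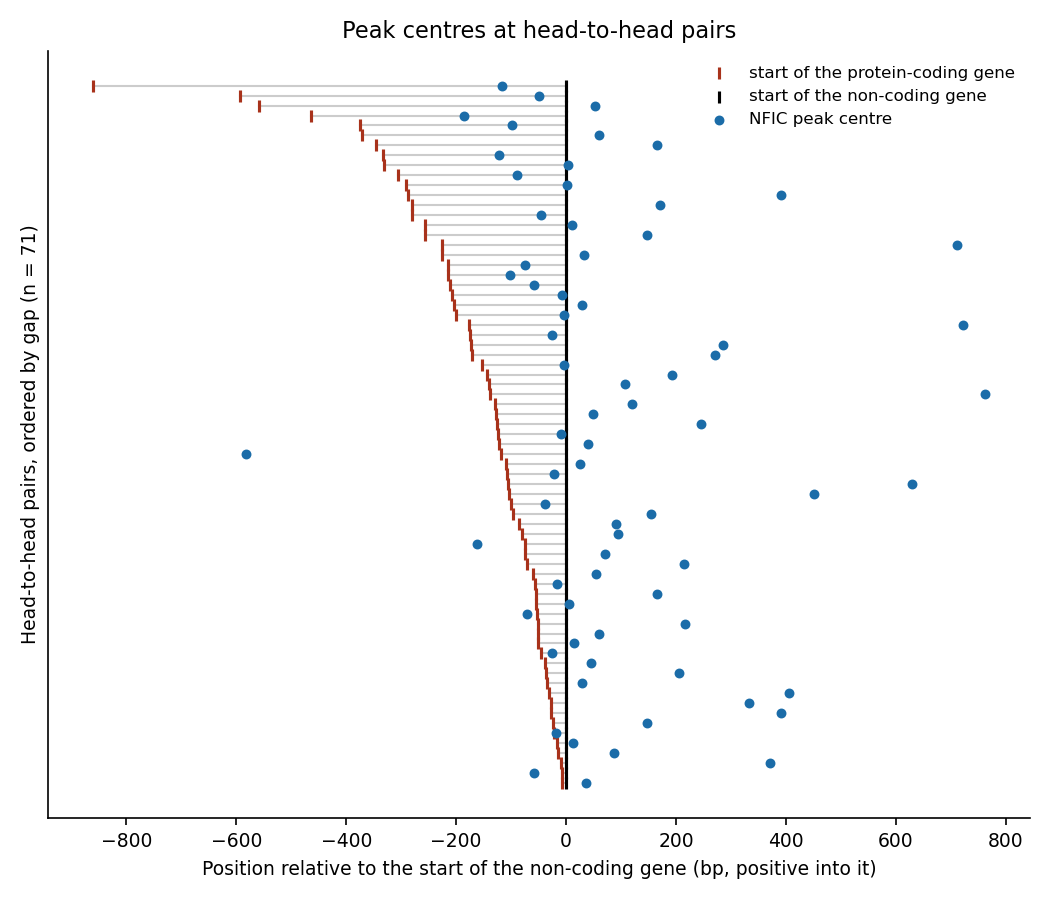
The 71 head-to-head pairs, 1 per row and ordered by the gap, drawn in bp relative to the start of the non-coding gene, with the start of the protein-coding gene in red and the NFIC peak centre in blue. Of the peak centres, 47 lie to the right of the non-coding start, 20 between both starts and 4 to the left of the coding start.

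The pairs with an exact NFI site held genes of varied function. Besides *Gm17597* and *Tef*, the peak at *2610316D01Rik* (score 14.3) lay 762 bp past its start, which is 138 bp from that of *Pcdh10*, a protocadherin gene. The peak at *3010003L21Rik* (12.3) lay 406 bp past its start, 31 bp from *Sinhcaf*, whose product is part of a SIN3 histone deacetylase complex. *Fam120aos* (10.4) was 52 bp from *Fam120a*. The remaining pairs had lower scores. They were *Hk1os* and *Hk1* (6.77; gap of 214 bp), *Gm15674* and *Cd55b* (5.38; 22 bp), *Lrp8os2* and *Lrp8*, which encodes an apolipoprotein E receptor (4.58; 118 bp), and *1700102H20Rik* and *Tfb1m* (4.18; 28 bp), which encodes a methyltransferase of mitochondrial ribosomal RNA. At *Tmem51os1* (6.77) the starts of the RNA and of *Tmem51* overlapped by 6 bp. The partner carried a promoter peak under its own name in 5 of the 71 pairs, 7.04% (3.05 to 15.4%), beside 14.2% of all protein-coding genes. This share leaves out the member peaks, which the list names for the RNA gene only. It therefore does not show how many partners had NFIC near their start. Of the 71 member peaks, 43 were annotated to a coding transcript, and the median distance of the peak centre from the coding start was 233 bp.

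Seen from the genes, 162 of 3939 non-coding genes with a curated RefSeq transcript had a member peak, 4.11% (3.54 to 4.78%), and 2984 of 21000 protein-coding genes had a promoter peak, 14.2% (13.7 to 14.7%). Of the 606 non-coding genes head to head with a coding gene, 68 had a member peak, 11.2% (8.95 to 14%), against 72 of the 2994 without a coding TSS within 1000 bp, 2.40% (1.91 to 3.02%). Counting any peak from -1000 to 100 bp of the gene start, whichever gene the list names, gave 135 of 606 (22.3%; 19.1 to 25.8%) and 97 of 2994 (3.24%; 2.66 to 3.94%). In 81 of the 135 the gene had no member peak there, and the peak was in the promoter class of a protein-coding gene. Genes without expression in the pancreas are part of these totals.

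The share with an NFI full site differed more among the members than between the members and the promoter peaks of protein-coding genes. In the 200 bp centred on the peak, 68 of 166 members held a full site, 41.0% (33.8 to 48.6%), against 35.4% (33.7 to 37.1%) of promoter peaks of protein-coding genes and 56.0% of the 12554 peaks outside the promoter class. Where a coding TSS lay within 1000 bp, the share was 25 of 88, 28.4% (20 to 38.6%). Where none did, it was 43 of 78, 55.1% (44.1 to 65.7%), close to that of peaks outside the promoter class. Promoter peaks of protein-coding genes showed 34.7% and 35.5% under the same split. In windows of 200 bp at the start of every non-coding gene of the annotation, the share was 9.95%.

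Exact sites were found at 12.7% of members (8.43 to 18.6%), against 4.36% (3.69 to 5.14%) of promoter peaks of protein-coding genes, 15.7% of peaks outside the promoter class and 0.457% of starts of non-coding genes. The members near a coding TSS (10.2%; 5.47 to 18.3%) and those without (15.4%; 9.03 to 25%) had overlapping intervals. Opposite-strand RNAs held 4 of the 21 exact sites among 11 peaks, RIKEN clones 11 among 89, and predicted Gm genes 4 among 35. No pseudogene held one, and 0 of 11 allows a share of up to 25.9% (Wilson).

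GC content moved with these shares. Windows of the members had a median GC content of 61.3%, against 65.0% for promoter peaks of protein-coding genes and 52.5% outside the promoter class. A window rich in both GC (at least 55%) and CpG (observed to expected ratio of at least 0.6) was found at 85 members (51.2%; 43.7 to 58.7%), against 66.8% (65.1 to 68.5%) of promoter peaks of protein-coding genes. The share was 65.9% near a coding TSS and 34.6% elsewhere. Among GC- and CpG-rich windows, 23.5% of members (15.8 to 33.6%) and 29.7% of promoter peaks of protein-coding genes (27.7 to 31.7%) held a full site, and among the other windows 59.3% (48.4 to 69.3%) and 47.0% (43.9 to 50%). In GC- and CpG-rich windows, a full site was held by 17.2% (9.64 to 28.9%) of members near a coding TSS and 37.0% (21.5 to 55.8%) of the rest. In the other windows these shares were 50% (33.2 to 66.8%) and 64.7% (51.0 to 76.4%). The intervals overlap in both, and the difference by neighbourhood was not tested apart from GC and CpG content. For exact sites in GC- and CpG-rich windows, members had 9.41% (4.85 to 17.5%) and promoter peaks of protein-coding genes 2.63% (2.02 to 3.42%). In the others they had, in the same order, 16.0% (9.63 to 25.5%) and 7.84% (6.35 to 9.66%). Within the GC- and CpG-rich windows, the members near a coding TSS had 5.17% (1.77 to 14.1%) against 3.03% (1.65 to 5.49%), with intervals that overlap. Those without had 18.5% (8.18 to 36.7%) of 27 against 2.55% (1.91 to 3.41%). The 5 members behind the 18.5% include *Snhg5*, *9430037G07Rik* and *4930520O04Rik*, which are related by sequence, as described below. The interval counts them as separate, so it is too narrow for unrelated sequences.

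**Figure D3:**
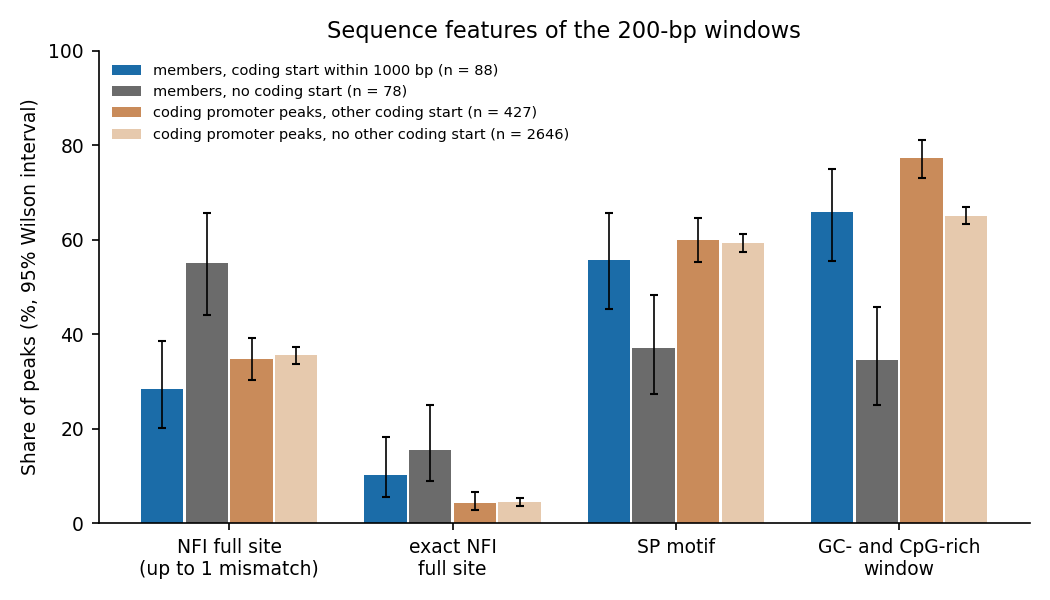
Share of peaks, in percent with 95% Wilson intervals, whose 200-bp window held each sequence feature, for members with and without a protein-coding start within 1000 bp and for promoter peaks of protein-coding genes split in the same way. Members without a coding start had the highest share of NFI full sites, 55.1%, and the lowest shares of the SP motif, 37.2%, and of GC- and CpG-rich windows, 34.6%.

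Other motifs were searched as fixed strings on both strands. GGGCGG, the box of SP factors, was found in 78 members, 47.0% (39.5 to 54.6%), against 59.4% (57.6 to 61.1%) of promoter peaks of protein-coding genes and 21.1% of starts of non-coding genes. It was present in 55.7% of members near a coding TSS and in 37.2% of the others. Windows rich in GC and CpG made up 51.2% of members and 21.9% of starts of non-coding genes. In such windows 69.4% of members and 72.3% of promoter peaks of protein-coding genes held GGGCGG. In the remaining windows 23.5% and 33.4% did. How far the SP shares follow base composition was not tested. The single NFI arm TTGGCA was found in 39 members (23.5%; 17.7 to 30.5%), against 19.2% of promoter peaks of protein-coding genes and 10.8% of starts of non-coding genes. For CCAAT, the box of NFY, the shares in the same order were 23.5%, 25.7% and 27.1%. The bHLH boxes CAGCTG or CAGATG were found in 22.9% (17.2 to 29.9%), 18.4% and 23.6%, and GATAAG in 4.22%, 3.22% and 4.42%. The ETS motif CCGGAAGT, the CRE TGACGTCA and the NRF1 core GCGCATGC were rare. ETS was found in 3.01% of members (1.29 to 6.86%), 4.62% of promoter peaks of protein-coding genes and 2.06% of starts of non-coding genes. The shares in this order were 1.81%, 1.72% and 1.42% for the CRE, and 5.42% (2.88 to 9.98%), 3.38% and 1.60% for NRF1. TTGGCA can overlap an NFI full site, and each of these shares counts a match of letters only.

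Peaks with a better NFI match had higher scores. The median score was 12.3 for the 21 members with an exact site, 7.37 for the 47 whose best site had 1 mismatch and 5.78 for the 98 without a site. Among promoter peaks of protein-coding genes the same groups had medians of 10.1, 7.97 and 5.78. The ranges overlapped widely, from 4.18 to 42.0 with an exact site and from 3.39 to 54.4 without a site. *Pisd-ps1*, *Pisd-ps2*, *A230028O05Rik* and *Bcas3os2* were the members of the highest 10 without a full site. In the upper 2 quartiles of score, 48 of 85 members held a full site (56.5%; 45.9 to 66.5%), and in the lower 2 quartiles 20 of 81 (24.7%; 16.6 to 35.1%).

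**Figure D4:**
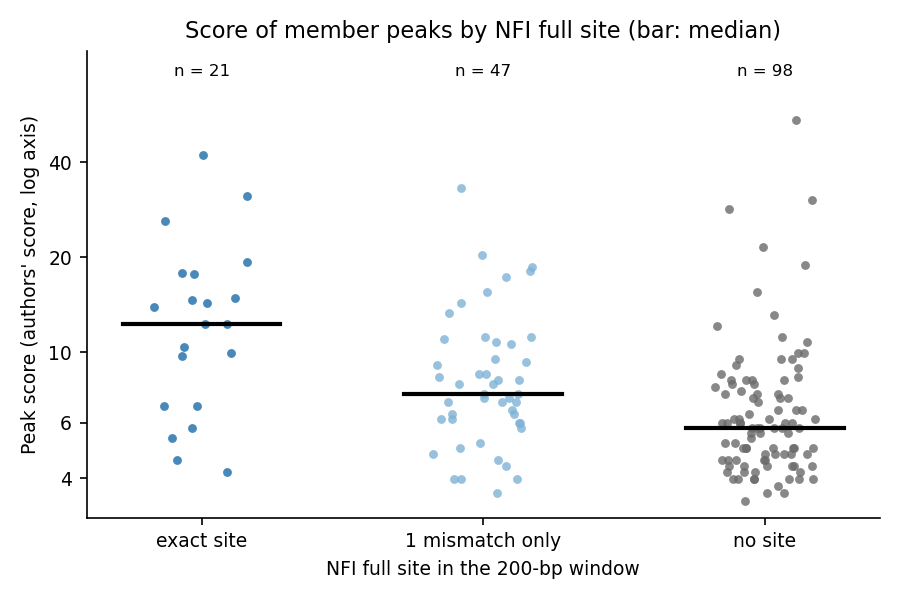
Score (log axis) of each member, grouped by whether its 200-bp window held an exact NFI full site, a site with 1 mismatch or none, with a bar at the median. The medians are 12.3, 7.37 and 5.78, and the 3 groups overlap.

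Among 4 members related by sequence, the peak with a mismatch in the aligned site had the lowest score. The window of *Snhg5*, a snoRNA host gene, resembled those of 3 other members on chromosome 9, *9430037G07Rik*, *9330159M07Rik* and *4930520O04Rik*, over 168 to 201 aligned bases with 85.4 to 89.3% identity. The stretch that aligns with the exact site of *Snhg5* is shown for each, in the orientation of the plus strand at *Snhg5*, with the aligned site in capitals.
Snhg5 (chr9:88523110-88523146): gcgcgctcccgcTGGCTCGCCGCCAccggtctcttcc
9430037G07Rik (chr9:88599670-88599706): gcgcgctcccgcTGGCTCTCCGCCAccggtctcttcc
9330159M07Rik (chr9:88859025-88859061): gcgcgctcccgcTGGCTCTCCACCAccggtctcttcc
4930520O04Rik (chr9:114368225-114368261, minus strand): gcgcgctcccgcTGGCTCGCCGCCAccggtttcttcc

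Positions in these sites are counted from 1 at the left end of the capitals, with the base of *Snhg5* given before the position. *9430037G07Rik* differed by G7T, in the spacer, and had a score of 13.9, near the 14.7 of *Snhg5*. *4930520O04Rik* had the same site and a score of 12.3. *9330159M07Rik* carried G7T and also G10A, which is a mismatch in the right arm, and its score was 4.58. The 3 peaks with both arms intact were thus higher than the peak with the mismatch. The position of the site differed too. It lay 37 bp from the peak centre at *9330159M07Rik*, against 12 bp at *Snhg5* and *9430037G07Rik* and 10 bp at *4930520O04Rik*. The comparison is of 4 loci that all have a peak, without replicates, and the windows differ at other bases too. How reads that match several places were treated is not given in the sources used here, and the windows of *9430037G07Rik* and *9330159M07Rik* each have 3 copies in the genome at 90% identity or more. The copy at chr9:89066629-89066829, 95.5% identical to the window of *9430037G07Rik*, had no peak in the list. Its NFI site was not examined.

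Other members lay in repeated sequence as well. In all, 8 of 166 windows had more than 1 copy, taken as a match of at least 90% identity over at least 90% of the window. *2610005L07Rik* and *6820431F20Rik*, both listed as pseudogenes, belonged to a set of 7 copies, 6 on chromosome 8 and 1 on chromosome 2, with 91.0 to 99.0% identity to the window of *2610005L07Rik*. All 7 carried a peak, with scores of 33.1, 23.9, 20.1, 8.17, 7.17, 6.77 and 6.57. Of these, 33.1 and 6.57 were the member peaks, and the copy on chromosome 2 was listed under the coding gene *Nsfl1c*. *Pisd-ps1* and *Pisd-ps2* were copies of each other, at 97.0% identity by the window of the former and 95% by that of the latter, and their scores were 54.4 and 30.3. Thus 3 of the 5 highest scores were at repeated sequences. Copies without a peak in the list were found for the windows of *1810064F22Rik*, *2700038G22Rik*, *9430037G07Rik* and *9330159M07Rik*. Without the 8 repeated windows the median score of the members was 6.47.

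**Figure D5:**
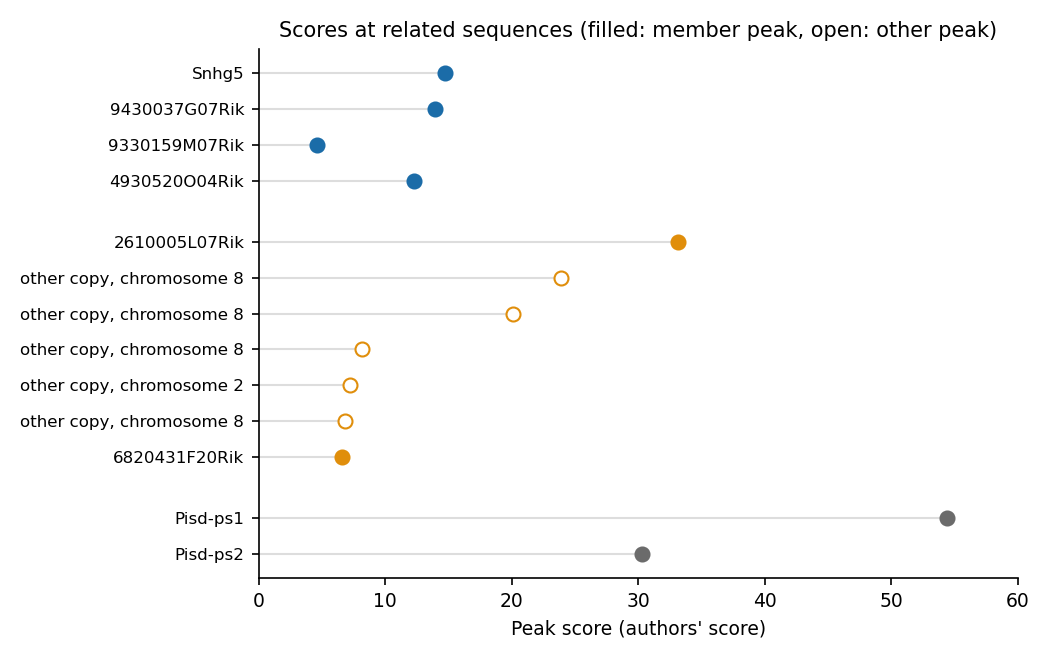
Peak score at loci with a peak in 3 sets of related sequences, with member peaks filled and other peaks of the list open: *Snhg5* and its 3 relatives, the 7 copies of the *2610005L07Rik* window, and *Pisd-ps1* with *Pisd-ps2*. In the *Snhg5* set the scores are 14.7, 13.9, 4.58 and 12.3 from top to bottom.

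Of 21 snoRNA host genes listed, 4 had a member peak, beside 4.11% of all non-coding genes, and no test was made of this or the following lists. *Snhg5* had a score of 14.7, at -243 bp, *Snhg8* 6.57 at -355 bp, *Snhg15* 4.98 at -129 bp and *Epb41l4aos* 4.58 at -123 bp. *Snhg5* was thus the highest, and the only one of the 4 with an exact NFI site. Peaks of *Snhg3*, at -1068 bp with a score of 6.17, and of *Snhg11*, at -2342 bp with 12.5, lay outside the promoter class. *Snhg18* had an intronic peak at 1346 bp and *Snhg7* a peak at -6799 bp.

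Among 12 structural small RNA genes found in the annotation, *Rmrp* and *Rpph1* had a member peak, beside 4.11% of all non-coding genes. Both lay head to head with a coding gene, an arrangement in which 11.2% of all non-coding genes had one. The *Rmrp* peak, at chr4:43492803-43492975, had a score of 8.17 and was 170 bp past the *Rmrp* start, and the partner *Ccdc107* starts 281 bp from it. The *Rpph1* peak, at chr14:50807440-50807612, had a score of 6.17 and was 245 bp past the start, and the partner *Parp2*, which encodes a poly(ADP-ribose) polymerase of DNA repair, starts 126 bp from it. Each centre lay farther from the coding start than from the RNA start, with 451 and 371 bp to the former. Neither held a full NFI site, and both were annotated through the coding transcript.

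Of 13 nuclear and X-linked lncRNA genes in the annotation, *Tug1* had a member peak, with the low score of 4.38, and a count of 1 in 13 is near the share of 4.11% over all non-coding genes. It lay 98 bp upstream of *Tug1*, whose start is 375 bp from that of the head-to-head gene *Morc2a*, and held no full site. *Malat1*, an abundant nuclear lncRNA, had a peak of 8.96 at 220 bp, which the list classes as exonic and which is no member. *Trp53cor1*, the lncRNA also called lincRNA-p21, had its strongest peak, 24.5, in its last exon at 21011 bp, and *Pvt1* had 5 intronic peaks with scores up to 19.1. At these 3 genes the strongest peak of each lay inside the gene. *Trp53cor1* also had peaks of 4.58 at 752 bp and 4.38 at 140 bp. Of the other listed genes, *Neat1* had a peak of 9.16 classed at a transcript end and an intergenic peak of 7.77 at -2681 bp. *2900097C17Rik* had an intronic peak of 6.37 at 36888 bp.

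*Peg13* was the member among 7 imprinted lncRNA genes in the annotation, with a score of 5.78 at 8 bp, again a count too small to set apart from 4.11%. Of 7 antisense RNAs of foregut, acinar and islet regulators that the annotation holds, 0 had a peak of any class under their name, which at a share of 4.11% with a member peak says nothing about these genes.

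The gene with more than 1 member peak was *1810053B23Rik*, where both peaks had a score of 6.17, at -667 bp and -162 bp of different transcripts, and both held a full site with 1 mismatch. Another NFIC peak lay within 10000 bp of 48 members, 28.9% (22.6 to 36.2%), against 27.6% of promoter peaks of protein-coding genes, and within 1000 bp of 9 (5.42%; 2.88 to 9.98%), against 8.01% (7.10 to 9.02%). At *1110002J07Rik*, whose promoter peak had a score of 9.76 and an exact site, an intergenic peak 1056 bp away reached 32.1. *2900052L18Rik* (17.7) lies 1253 bp from the start of the head-to-head gene *Bahcc1*, which had its own promoter peak of 15.3. At *Rap1gapos* (7.37), the promoter peak of *Rap1gap* lay 678 bp away with 7.97, and intronic peaks of 19.9 and 11.8 lay within the RNA gene. At these genes, member peaks were thus part of a group of NFIC peaks, and at *1110002J07Rik* and *Rap1gapos* the member peak was not the highest of the group.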

How the data were processed

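The measurement is NFIC ChIP-Seq on mouse pancreas, in 3 libraries with 1 of input DNA, from which the authors deposited 1 merged list of peaks on mm10. The submitters' processing notes name BWA, Picard and MACS2, and the methods name fastqc, RUbioSeq+ and HOMER in a paragraph on downloaded data. Thresholds are not given in the sources used here. The peak score is the authors' own, and the deposited focus ratio, a fraction between 0 and 1, was not compared. Other columns give the distance to the TSS. The list has 0 columns with a value per sample, so the depth is unknown and no replicate error could be given.

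Every peak is 173 bp long. Windows of 200 bp around peak centres and gene starts were read from the RefSeq assembly GRCm38.p6, of the same coordinates as mm10, and 161 of 166 recomputed distances equalled those of the authors. The detailed annotation gave no CpG island for these peaks, so a threshold on GC and CpG content was used in place of it. Copies were searched with BLAST 2.17.0. Shares have 95% Wilson intervals, and no test was made. The motif search found 100% of sites planted in simulated sequences. Python 3.11.15, pandas 2.3.3, scipy 1.17.1 and pysam 0.24.0 were used.

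The members and lists were chosen with earlier results of these data known. Named genes are those of the 10 highest scores, of more than 1 member peak, of the fixed lists, of exact NFI sites and their coding partners. Relatives of these by sequence, genes of repeated windows, *Rap1gapos*, *1700112J16Rik*, *Gm11240* and the genes named for their annotation were chosen after their values were seen. So were the peaks of listed genes outside the promoter class and the neighbouring peaks.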

Additional observations from a re-analysis of the deposited data

How the results depend on the processing

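Of 33 alternative settings, of which 10 were chosen after seeing the data, 24 kept the value within its 95% interval, or, for counts, within 1.5 times. The upper 2 quartiles of score kept 85 peaks and 85 genes, and raised the share with an NFI full site from 41.0% to 56.5%. With 0 mismatches that share was 12.7%, and with a window of 100 bp it was 30.7%, while the TTGGCA arm fell to 16.3% and the SP motif to 29.5%. A limit of 500 bp lowered the share with a coding TSS from 53.0% to 44.0%. Counting pairs with overlapping starts raised the share of divergent pairs from 42.8% to 54.8%. Each of these settings changes which peaks, bases or pairs are counted. The share with a coding TSS was 50% with curated RefSeq transcripts and 50.6% with GENCODE M21.

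The merged list limits these data. No paired analysis was possible because the list holds no value per sample, and for the same reason leaving out a replicate was not possible. Whether a peak was present in each of the 3 libraries, and how far it rose above the input, was not analysed here. Shares that rest on few peaks, such as the 11 pseudogenes, have wide intervals.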
